A study of Homo sapiens with 4 samples.

Results

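The 39 protein-coding HOX genes of the HOXA, HOXB, HOXC and HOXD clusters were followed in RNA-seq libraries of PBRM1-deficient human cells that had been given mutant or unaltered PBRM1. They were the rows of the deposited table that carried a protein-coding biotype and a symbol made of HOX, a cluster letter and a number, 39 of 58735 genes. This rule uses no measured value. PBRM1 belongs to PBAF, a complex that remodels chromatin, and each mutant is named for a single change in its BAH domains. All 4 groups were HEK293T cells, a human embryonic kidney line, whose PBRM1 had been knocked out by CRISPR. Each was transfected with a plasmid for GFP-tagged PBRM1 and collected after 48 h. The groups were P1048R, T1202K, C1233W and the unaltered protein (WT), with 1 library each. Knockout cells left untransfected were not analysed here, and the labels do not say whether the knockout cells are 1 clone or a pool. The question set by the design was how the transcriptome after re-expression of each BAH mutant compared with that after WT.

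HOX genes encode homeodomain transcription factors that give cells their position along the body axis of the embryo. They lie in clusters in which the order of the genes on the chromosome follows the order of their expression domains, with low-numbered genes anterior and high-numbered genes posterior. Genes that share a number in different clusters are paralogs descended from 1 ancestral gene. In differentiated and cultured cells the pattern is kept by trithorax (MLL) proteins, which maintain active clusters, and by Polycomb complexes, which maintain silent ones.

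The libraries held 11205322 (P1048R), 10993748 (T1202K), 10348552 (C1233W) and 10246250 (WT) counted reads. With 1 library per construct, every difference below is between libraries, intervals cover counting error only, and no p-value can be given. Levels are in CPM, the count rate after TMM scaling of the library sizes (TMM sets most genes level between libraries), and a floor of 3 reads was 0.251 to 0.321 CPM. A gene passed the size rule when its log2 ratio was at least 1 in size and the 95% counting interval excluded 0. PBRM1 itself stood at 8805 CPM in P1048R, 15262 in T1202K, 60509 in C1233W and 22768 in WT, so the dose of the construct's RNA differed along with the mutation, and its part in any HOX value was not tested. Of 15 markers of HEK293T cells, 14 reached 1 CPM. NEFM, a neurofilament gene, was the marker of that list that passed the size rule, lower in P1048R (log2 ratio to WT -1.01, from -1.09 to -0.93). Of all genes that reached 1 CPM in some library, 3.02% were lower in P1048R by this rule.

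Most HOX genes were on in these cells. Of the 39, 36 reached 1 CPM in at least 1 library and 34 in all 4, namely 11 of 11 HOXA genes, 9 of 10 HOXB genes, 8 of 9 HOXC genes and 6 of 9 HOXD genes. At 10 CPM in every library stood 28 genes, and at 50 CPM in every library 6 genes, of which 3 were in HOXB, 2 in HOXD and 1 in HOXA. The 3 genes under 1 CPM throughout were HOXB1, HOXC5 and HOXD12. HOXB1, which patterns part of the hindbrain, had 1 read in T1202K and 0 in P1048R, C1233W and WT, where a count of 0 allows up to the floor of 3 reads. HOXC5 had 3, 4, 7 and 5 reads and HOXD12 had 4, 4, 6 and 4 reads in P1048R, T1202K, C1233W and WT. HOXD1 and HOXD3 lay at the edge, above 1 CPM in some libraries only.

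Per kilobase of exon, the median level over the members was 8.36 CPM per kb, with 11.1 for HOXA, 9.14 for HOXB, 8.36 for HOXC and 6.28 for HOXD. HOXB9 was the highest member at 79.0 CPM per kb on average over the libraries, followed by HOXA5 (39.2), HOXD10 (35.4), HOXD13 (34.8) and HOXB6 (24.4). Summed over paralogs, group 9 held the most (120 CPM per kb), then groups 10 (61.7), 13 (61.4), 6 (56.3) and 5 (45.8). Groups 2 (8.52), 3 (12.5) and 12 (2.19) held less than these. The profile in these kidney-derived cells was thus highest in the middle and posterior groups, with group 12 as a gap between active neighbours on either side.

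**Figure D1:**
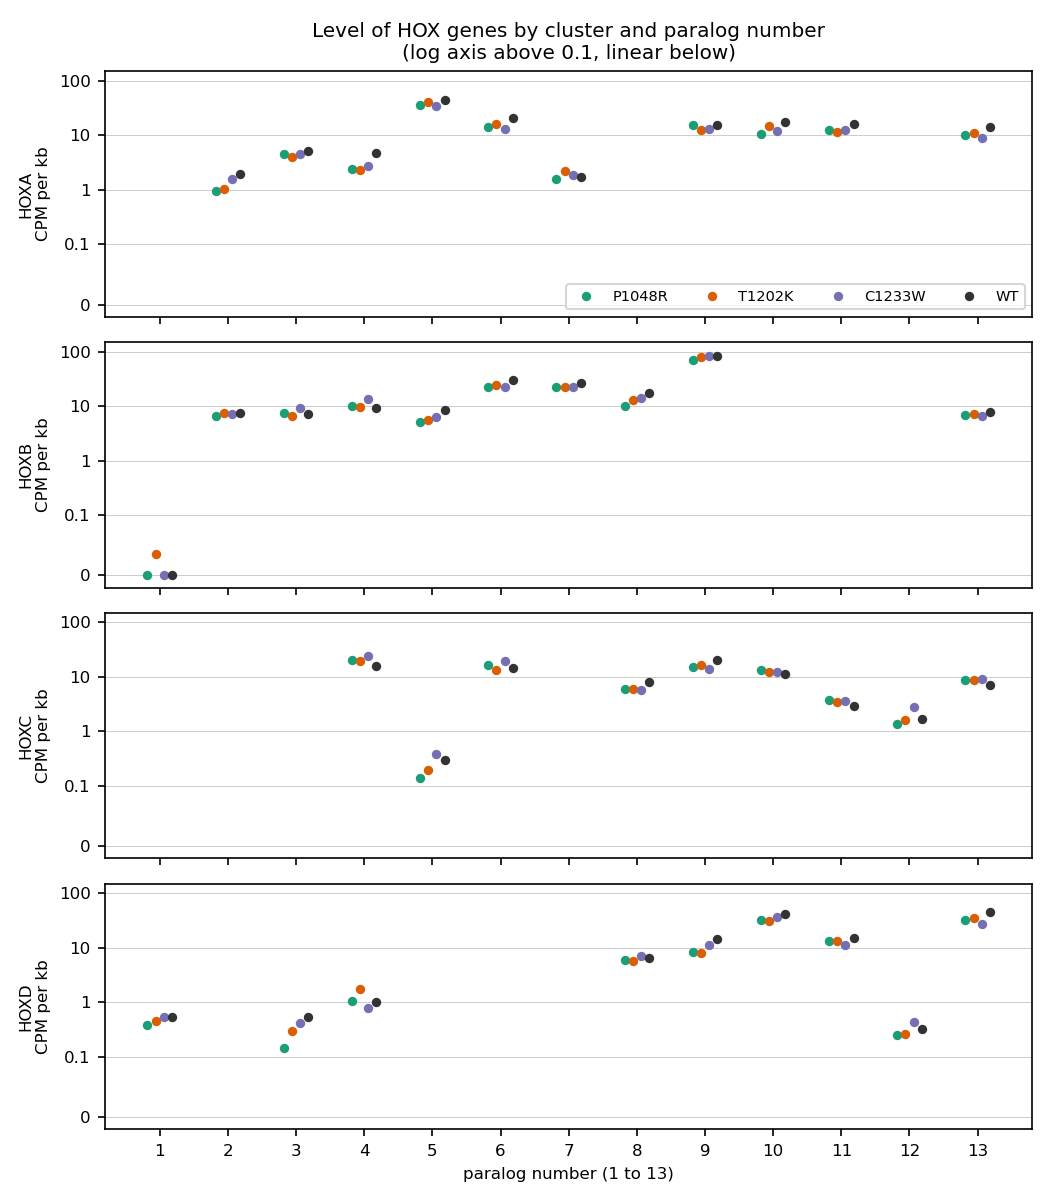
Level of HOX genes in CPM per kilobase of exon (vertical axis, log above 0.1 and linear below) against its paralog number (horizontal axis), with 1 panel per cluster and 1 point per library. The 4 libraries sit close together at most genes, HOXB9 is the highest point set, and HOXB1, HOXC5 and HOXD12 lie near the bottom beside active neighbours.

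The promoters of a gene under 1 CPM and of its active neighbour are shown because the 2 genes differ in level within a few kilobases of the same cluster. HOXD13, required for digit formation, and HOXD12 are adjacent on the plus strand of chromosome 2. HOXC4 is shown because RefSeq gives it the same window as HOXC5, so that 1 window stands for a gene at 42.8 to 66.5 CPM and a gene at 0.251 to 0.677 CPM. The HOXC5 level is uncertain, since 59.9% of its exonic bases are shared with AC012531.3 and AC012531.2 on the same strand. In the gene coordinates used here HOXC5 starts at 54032853, outside this window. Each window runs from 250 bases before to 50 bases after the RefSeq start (GRCh38.p14), 5′ to 3′ on the strand of the gene. Capitals mark matches on either strand to a TATA box, spelled TATAAA, to the CCAAT box, or to TGATTNAT, a site for PBX with HOX. The windows are chr2:176092471-176092770 for HOXD13, chr2:176099545-176099844 for HOXD12 and chr12:54016638-54016937 for HOXC4, all on the plus strand.
HOXD13: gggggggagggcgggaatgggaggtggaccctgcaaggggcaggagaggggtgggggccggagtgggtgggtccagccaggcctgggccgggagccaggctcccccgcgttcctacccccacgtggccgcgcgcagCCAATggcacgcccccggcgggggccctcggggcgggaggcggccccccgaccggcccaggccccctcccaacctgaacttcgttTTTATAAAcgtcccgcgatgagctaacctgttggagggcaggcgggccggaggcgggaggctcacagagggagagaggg
HOXD12: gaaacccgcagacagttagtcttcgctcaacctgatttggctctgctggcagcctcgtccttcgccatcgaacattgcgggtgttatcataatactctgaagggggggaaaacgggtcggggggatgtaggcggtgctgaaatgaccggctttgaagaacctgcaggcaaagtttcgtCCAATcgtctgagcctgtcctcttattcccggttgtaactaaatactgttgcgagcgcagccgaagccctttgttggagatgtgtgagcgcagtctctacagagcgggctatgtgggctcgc
HOXC4: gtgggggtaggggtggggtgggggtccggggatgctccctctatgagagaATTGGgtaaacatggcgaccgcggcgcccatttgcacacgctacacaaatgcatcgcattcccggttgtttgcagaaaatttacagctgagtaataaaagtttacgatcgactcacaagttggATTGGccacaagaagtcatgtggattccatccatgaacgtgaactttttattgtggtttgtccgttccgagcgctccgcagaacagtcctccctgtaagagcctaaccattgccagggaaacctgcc

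The HOXD13 window was 74.0% GC with 24 CpG dinucleotides, and its capitals include a stretch where the TATA box letters are matched on both strands, overlapping. The HOXD12 window was 54.3% GC with 19 CpG, and the HOXC4 window 51.7% GC with 15 CpG. Both hold CCAAT and neither holds TATAAA or TGATTNAT. RefSeq windows were found for 20 of the 39 members, 26 distinct windows in all, with a median of 22.5 CpG against 14 in all 35116 windows, and a median GC of 58.0% against 58.7%. CCAAT was present in 17 of the 26, against 34.6% of all windows, TATAAA in 5 against 11.5%, TGATTNAT in 2 against 2.82%, and GGGCGG (GC box) in 13 against 44.95%. Neighbouring HOX genes are related in sequence, so the 26 windows are not independent of each other. These matches are letters in a window and show no binding.

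Across the 4 libraries, 5 of the 36 compared members differed by 2-fold or more between the highest and the lowest library, namely HOXA2, HOXA4, HOXC12, HOXD3 and HOXD4, each with fewer than 100 reads per library. Compared genes are the 16262 that reached 1 CPM in some library. Of the 14485 of them with reads in every library and a mean CPM in the HOX range, 2339 also differed by 2-fold or more. The 5 HOX genes are thus no particular trait of the clusters. The median factor between highest and lowest library was 1.39 over these 36 HOX genes, against 1.45 over all compared genes with reads in every library and 1.44 over the 14485 of them in the HOX range of mean CPM. The medians by cluster were 1.43 in HOXA, 1.35 in HOXB, 1.42 in HOXC and 1.57 in HOXD.

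Against WT, no HOX gene was higher by the size rule in any mutant, and 1 was lower. In P1048R, 1 of 36 compared HOX genes was lower and 0 higher, where 3.02% of all compared genes were lower and 4.48% higher. In T1202K it was 0 lower and 0 higher, where 2.21% of all genes were lower and 2.95% higher. In C1233W it was also 0 and 0, against 1.21% lower and 4.19% higher. These shares of HOX genes are near or under the shares over all genes. The split of all genes moved with the scaling. It was 728 higher and 491 lower in P1048R, 479 and 359 in T1202K and 681 and 197 in C1233W, and on total counts 1253 and 231, 806 and 221, and 943 and 125. The 3 comparisons share the WT library, so they are not separate tests of it.

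The gene that passed was HOXD3, an anterior HOXD gene on chromosome 2 (176136612 to 176173102, plus strand). It had 6 reads in P1048R, 12 in T1202K and 15 in C1233W, against 18 in WT. The log2 ratio of P1048R was -1.86 (-3.56 to -0.54). The counts are small, and 62.2% of its exonic bases are shared with AC009336.2 on the same strand. The pass was lost when only genes with at least 5 CPM were compared, since HOXD3 was then no longer among them.

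Smaller differences were described by the counting interval alone. In P1048R the interval excluded 0 for 18 of 36 HOX genes on the lower side and 3 on the higher side, against 27.1% and 23.9% of all compared genes. In T1202K it was 16 lower and 2 higher, against 22.3% and 22.2%. In C1233W it was 17 lower and 6 higher, against 24.8% and 19.7%. The median log2 ratio of HOX genes relative to the median of all genes was -0.21 in P1048R, -0.23 in T1202K and -0.24 in C1233W. Without the filter on low counts these medians were -0.13, -0.082 and -0.13, nearer to that of all genes.

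These counts depended on how the libraries were scaled. P1048R gave the HOX genes 0.124% of all reads (0.122 to 0.126), T1202K 0.125% (0.123 to 0.127), C1233W 0.125% (0.123 to 0.127) and WT 0.127% (0.125 to 0.129), and the interval of each mutant overlaps that of WT. Scaling by total counts moved the median of all genes to 0.19 in P1048R, 0.17 in T1202K and 0.13 in C1233W. With it, the HOX genes whose interval excluded 0 were 12 lower and 8 higher in P1048R, 8 lower and 6 higher in T1202K, and 9 lower and 9 higher in C1233W. The shares of all compared genes by the interval were not worked out on that scale. These counts therefore cannot be set against a background, and the shares above hold for TMM only. Cluster values below are therefore given relative to all genes, or as shares of HOX reads, which no library scaling can move. In bulk RNA, fewer cells with an active gene and less RNA per cell cannot be told apart.

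The 4 clusters did not move as a block. Summed over its genes and relative to the median of all genes, HOXA was lower in every mutant. Its log2 ratio to WT was -0.34 (-0.41 to -0.27) for P1048R, -0.27 (-0.34 to -0.21) for T1202K and -0.41 (-0.48 to -0.34) for C1233W. HOXD stood at -0.39 (-0.47 to -0.31) for P1048R, and for both T1202K and C1233W at -0.38 (-0.46 to -0.30). The HOXB sum was closer to the median of all genes, at -0.19 (-0.25 to -0.13) in P1048R, -0.12 (-0.17 to -0.06) in T1202K and -0.03 (-0.09 to 0.03) in C1233W. Without HOXB9, its most counted gene, the T1202K value was -0.19. HOXC was higher in P1048R at 0.14 (0.06 to 0.23) and in C1233W at 0.26 (0.17 to 0.35), and stood at 0.03 in T1202K (-0.06 to 0.12), or at 0.086 without HOXC6, its most counted gene. The medians over the genes of a cluster, relative to all genes, were -0.29, -0.34 and -0.32 for HOXA in P1048R, T1202K and C1233W. They were -0.16, -0.09 and -0.23 for HOXB, so that in C1233W the median of HOXB was farther from all genes than its sum. They were 0.23, 0.04 and 0.36 for HOXC and -0.40, -0.33 and -0.33 for HOXD.

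On total counts and without the shift of all genes, the summed log2 ratios for P1048R, T1202K and C1233W were -0.16, -0.11 and -0.29 for HOXA and -0.21, -0.22 and -0.25 for HOXD. They were 0.32, 0.19 and 0.38 for HOXC. HOXB changed sign in T1202K (0.05) and C1233W (0.09) on that scale and was -0.01 in P1048R.

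**Figure D2:**
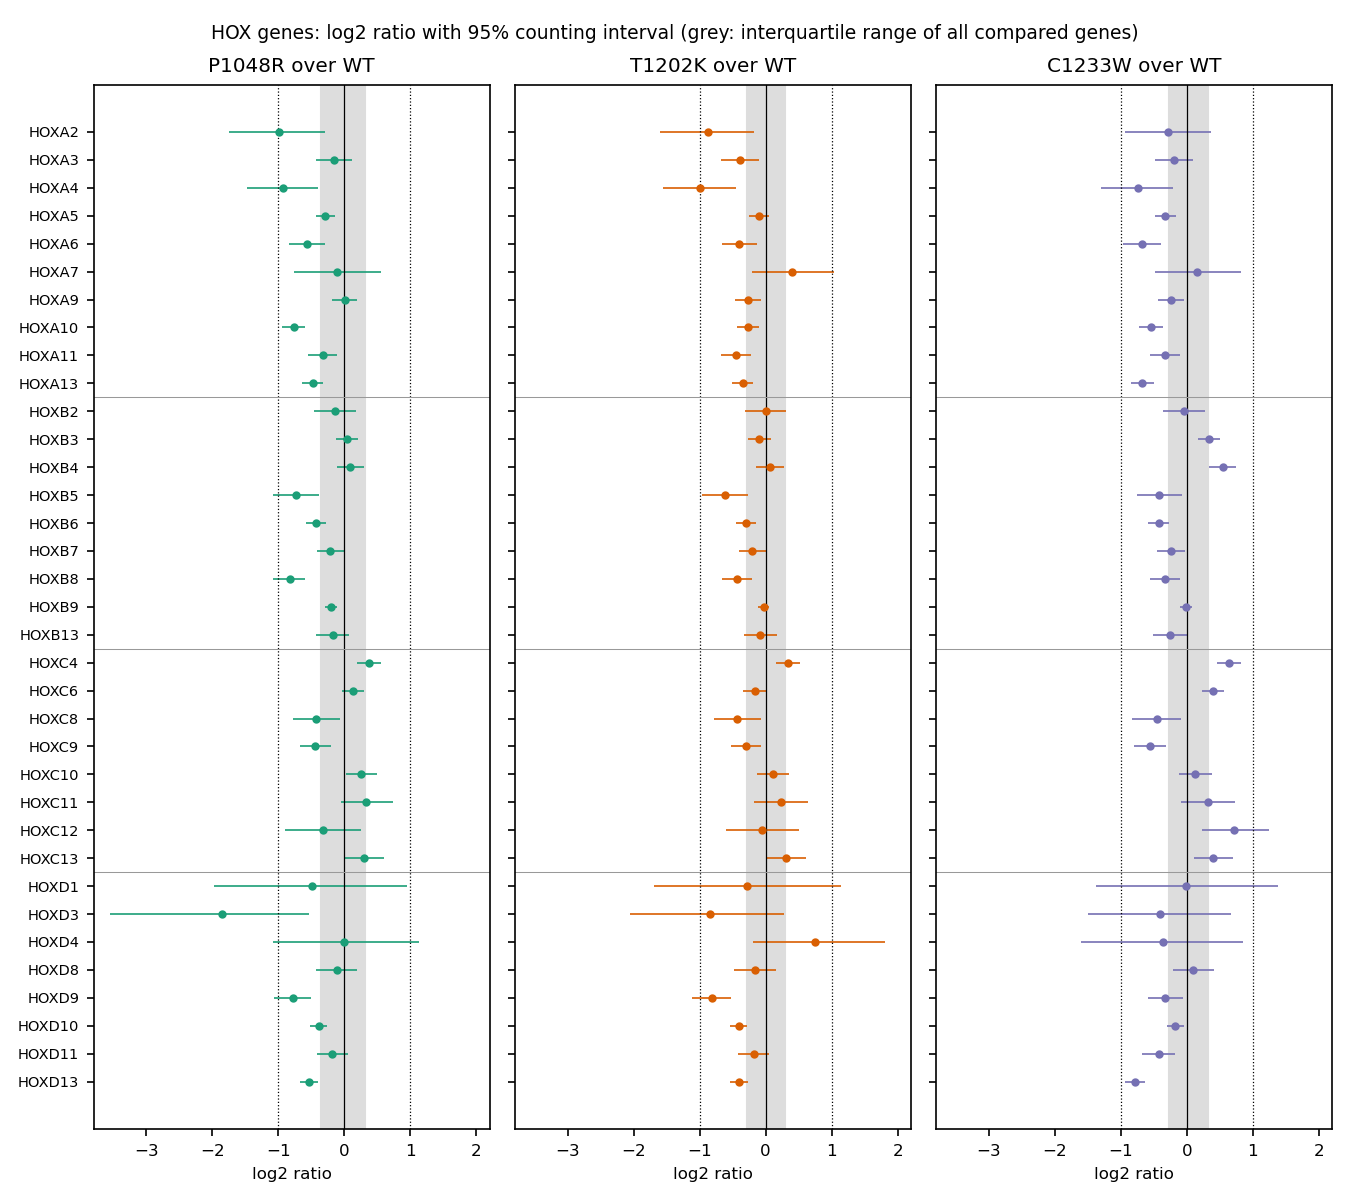
Log2 ratio to WT (horizontal axis) of compared HOX genes, listed down the page by cluster and paralog number, with 1 panel each for P1048R, T1202K and C1233W. Points are the ratios, bars the 95% counting intervals, dotted lines the size rule, and the grey band the interquartile range of all compared genes. HOXA and HOXD genes lie mostly at or left of the line at 0, HOXC4 and HOXC13 lie right of it, and the widest bars belong to HOXD3 and other genes with few reads.

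As shares of all HOX reads, HOXC took 18.8% (18.1 to 19.4) in P1048R, 17.04% (16.4 to 17.7) in T1202K and 19.4% (18.7 to 20.1) in C1233W, against 14.7% (14.1 to 15.3) in WT. HOXA took 24.7% (24.0 to 25.5), 25.5% (24.7 to 26.2) and 22.4% (21.7 to 23.1) in the same mutants, against 27.0% in WT (26.3 to 27.8). HOXD took 18.8% (18.1 to 19.4), 18.5% (17.9 to 19.2) and 18.1% (17.4 to 18.7), against 21.2% in WT (20.5 to 21.9). HOXB took 37.7% (36.9 to 38.5), 38.95% (38.1 to 39.8) and 40.1% (39.3 to 41.0), against 37.1% in WT (36.2 to 37.9). The intervals of the mutants and WT do not overlap for HOXC and HOXD in any mutant, nor for HOXA, and for HOXB they overlap in P1048R.

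The ratio of HOXC to HOXA reads was 1.40 times that of WT (1.30 to 1.51) in P1048R, 1.23 times (1.14 to 1.33) in T1202K and 1.59 times (1.48 to 1.72) in C1233W. The ratio of HOXC to HOXD reads was 1.45 times (1.33 to 1.57), 1.33 times (1.22 to 1.44) and 1.55 times (1.43 to 1.69) that of WT. The ratio of HOXD to HOXA reads differed less, at 0.97 times (0.90 to 1.04), 0.93 times (0.86 to 1.00) and 1.03 times (0.95 to 1.11). How far such ratios vary between cultures of 1 construct cannot be seen with 1 library each.

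**Figure D3:**
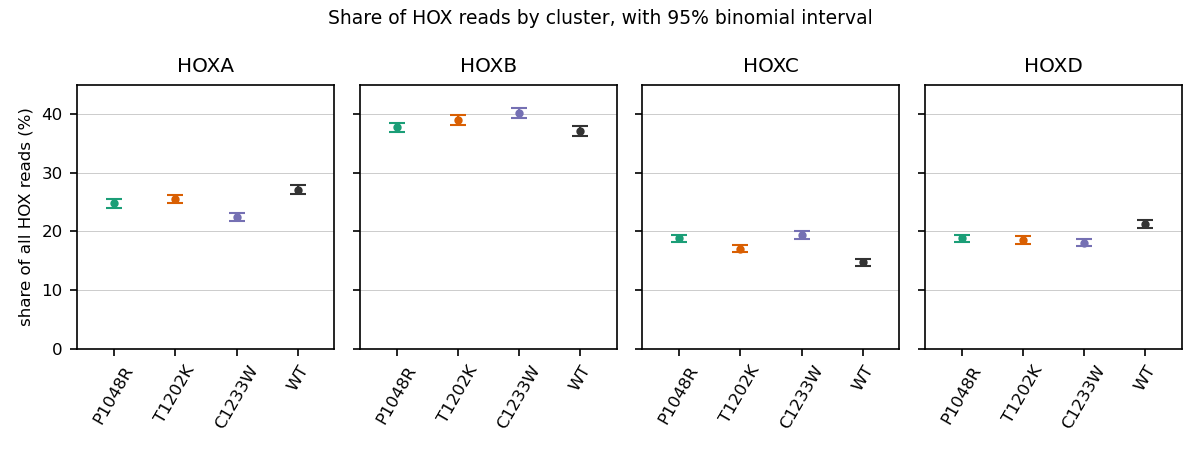
Share of all HOX reads (vertical axis, percent) taken by each cluster in P1048R, T1202K, C1233W and WT, with points for the library and bars for the 95% binomial (Clopper-Pearson) interval. HOXC lies at 17.04 to 19.4% in the mutants and 14.7% in WT, whereas HOXA and HOXD lie higher in WT.

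Position along the clusters was compared in the same way. Paralog groups 9 to 13 held 57.5% of HOX reads (56.7 to 58.3) in P1048R, 58.5% (57.7 to 59.3) in T1202K and 55.3% (54.5 to 56.2) in C1233W, against 59.5% (58.6 to 60.3) in WT, so that the interval of T1202K overlaps that of WT. Groups 4 to 8 held 33.4%, 33.2% and 34.9%, against 32.3% in WT, and groups 1 to 3 held 9.10%, 8.36% and 9.77%, against 8.19% in WT. Relative to all genes, the summed log2 ratios of groups 1 to 3, 4 to 8 and 9 to 13 in P1048R were -0.06 (-0.18 to 0.06), -0.17 (-0.23 to -0.11) and -0.26 (-0.31 to -0.22). In T1202K they were -0.16 (-0.28 to -0.04), -0.15 (-0.21 to -0.09) and -0.21 (-0.26 to -0.17), with intervals that overlap. In C1233W they were 0.11 (-0.01 to 0.23), -0.03 (-0.09 to 0.03) and -0.25 (-0.29 to -0.20). The medians over genes gave another order. They were -0.13, -0.21 and -0.28 in P1048R, -0.27, -0.17 and -0.26 in T1202K, and -0.11, -0.32 and -0.24 in C1233W.

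Within HOXA (chromosome 7, minus strand), the 3 highest members per kilobase were HOXA5, HOXA6 and HOXA9. HOXA5 (27141052 to 27143668), needed for lung and cervical skeleton development, had 738 reads (61.8 CPM) in P1048R, 796 (70.3) in T1202K and 623 (60.3) in C1233W, against 705 (75.4) in WT. Its log2 ratios to WT were -0.29 (-0.44 to -0.14), -0.10 (-0.25 to 0.05) and -0.32 (-0.48 to -0.17). WT was thus the highest library after TMM scaling, and T1202K differed from it within counting error. On total counts the interval of HOXA5 in P1048R included 0, while that of C1233W stayed below 0.

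HOXA6 (27145396 to 27150603) had 216 reads (18.1 CPM) in P1048R, 231 (20.4) in T1202K and 173 (16.7) in C1233W, against 251 (26.9) in WT. The log2 ratios were -0.57 (-0.84 to -0.30), -0.40 (-0.66 to -0.13) and -0.68 (-0.97 to -0.40). Its exons share 505 bases, or 39.3%, with the antisense gene HOXA-AS3, so part of its reads could belong to that gene.

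HOXA9 (27162435 to 27175180), a regulator of blood stem cells, had 551 reads (46.2 CPM) in P1048R, 432 (38.1) in T1202K and 404 (39.1) in C1233W, against 431 (46.1) in WT. P1048R and WT were level, with a log2 ratio of 0.00 (-0.18 to 0.19), whereas T1202K stood at -0.27 (-0.47 to -0.08) and C1233W at -0.24 (-0.44 to -0.04). On total counts the interval of HOXA9 in P1048R lay above 0.

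The other HOXA genes with intervals off 0 were lower than WT. HOXA4 had 51, 46 and 50 reads in P1048R, T1202K and C1233W, against 76 in WT, with log2 ratios of -0.92 (-1.47 to -0.40), -0.995 (-1.56 to -0.45) and -0.74 (-1.29 to -0.22). HOXA10, a regulator of uterine development, had 463, 621 and 469 reads against 618 in WT, and its ratio was lowest in P1048R at -0.77 (-0.95 to -0.59). HOXA13, required for limb and genital development, had 620, 643 and 469 reads against 676 in WT, and its ratio was lowest in C1233W at -0.67 (-0.85 to -0.50). The intervals of HOXA4 and HOXA13 excluded 0 on total counts as well. The HOXA4 level is uncertain, since 31.0% of its exonic bases are shared with AC004080.6 on the same strand. A further 16.3% are listed as shared with HOXA-AS2 and HOXA-AS3 on the opposite strand. HOXA2, a hindbrain and branchial arch gene, had 28, 29 and 40 reads against 44 in WT, with intervals below 0 in P1048R (-0.996, -1.74 to -0.29) and T1202K (-0.87, -1.61 to -0.17). HOXA11, a kidney and forearm gene, stood at -0.33, -0.45 and -0.34, with all 3 intervals below 0, and HOXA3 was lower in T1202K alone, at -0.39 (-0.68 to -0.09). HOXA7 had 45, 61 and 47 reads against 38 in WT, with intervals that include 0.

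In HOXB (chromosome 17, minus strand), HOXB9 (48621159 to 48626356), a thoracic patterning gene, had 2206 reads (185 CPM) in P1048R, 2353 (208) in T1202K and 2181 (211) in C1233W, against 1983 (212) in WT. P1048R was lower by the interval, at -0.20 (-0.29 to -0.11), whereas T1202K at -0.03 (-0.12 to 0.06) and C1233W at -0.01 (-0.10 to 0.08) were within counting error of WT. On total counts the interval of HOXB9 included 0 in P1048R and lay above 0 in T1202K and C1233W. This 1 gene held 15.9% (15.3 to 16.5), 17.1% (16.5 to 17.8) and 16.8% (16.2 to 17.5) of HOX reads in the mutants and 15.2% (14.6 to 15.9) in WT.

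HOXB6 (48595751 to 48604992) had 683 reads (57.2 CPM) in P1048R, 708 (62.5) in T1202K and 593 (57.4) in C1233W, against 721 (77.1) in WT. All 3 mutants were lower, with log2 ratios of -0.43 (-0.58 to -0.28), -0.30 (-0.45 to -0.15) and -0.43 (-0.59 to -0.27). HOXB7 (48607227 to 48633572) had 414 reads (34.7 CPM), 396 (35.0) and 352 (34.0) in those mutants, against 376 (40.2) in WT. Its log2 ratios were -0.21 (-0.42 to -0.01), -0.20 (-0.41 to 0.01) and -0.24 (-0.45 to -0.03).

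Neighbours in HOXB parted in direction in C1233W. HOXB4, which promotes expansion of blood stem cells, had 447 reads in P1048R, 416 in T1202K and 530 in C1233W, against 329 in WT, and was higher in C1233W by 0.54 (0.34 to 0.75). HOXB3 was higher there by 0.34 (0.17 to 0.51). HOXB8 had 243, 303 and 299 reads against 339 in WT, with log2 ratios of -0.83 (-1.08 to -0.59), -0.44 (-0.67 to -0.21) and -0.33 (-0.56 to -0.10). HOXB5 stood at -0.74, -0.62 and -0.42, with all 3 intervals below 0. On total counts the intervals of HOXB5 and HOXB8 in C1233W included 0, and that of HOXB6 stayed below 0. Those of HOXB3 and HOXB4 lay above 0 there in C1233W and in P1048R. Of the exonic bases of HOXB4, 17.1% are shared with HOXB3, AC103702.1 and MIR10A on the same strand. HOXB13, a prostate and hindgut gene, had 282, 286 and 232 reads, against 250 in WT, and HOXB2 had 186, 195 and 173, against 161, with no interval off 0.

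In HOXC (chromosome 12, plus strand), HOXC4 (54016931 to 54056030), whose promoter is printed above, had 660 reads (55.3 CPM) in P1048R, 611 (54.0) in T1202K and 687 (66.5) in C1233W, against 400 (42.8) in WT. WT was the lowest library, and the log2 ratios were 0.37 (0.19 to 0.55), 0.33 (0.15 to 0.52) and 0.63 (0.45 to 0.82). Of its exonic bases, 17.8% are shared with HOXC6 and AC012531.2 on the same strand.

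HOXC6 (53990624 to 54030823), active in cervical and thoracic motor neurons, had 684 reads (57.3 CPM) in P1048R, 530 (46.8) in T1202K and 711 (68.8) in C1233W, against 490 (52.4) in WT. It was higher in C1233W by 0.39 (0.22 to 0.56), and stood at 0.13 in P1048R and -0.16 in T1202K. HOXC9 (53994895 to 54003337), which sets thoracic motor neuron identity, had 305 reads (25.5 CPM), 319 (28.2) and 243 (23.5), against 324 (34.7) in WT. Its log2 ratios were -0.44 (-0.67 to -0.21), -0.30 (-0.53 to -0.07) and -0.56 (-0.81 to -0.32), opposite in sign to those of HOXC4.

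The cluster sum therefore joined members that differed in direction. By the interval, 3 HOXC genes were higher and 2 lower of 8 in P1048R, 2 and 2 in T1202K, and 4 and 2 in C1233W. Over all compared genes, 23.9% were higher and 27.1% lower in P1048R by the same interval. The shares were 22.2% and 22.3% in T1202K, and 19.7% and 24.8% in C1233W. The higher counts of HOXC in P1048R and C1233W lay above these shares, on 8 genes. Its higher count in T1202K and its lower counts in every mutant were near them. The lower HOXC genes were HOXC9 and HOXC8, a brachial motor neuron gene, at -0.43, -0.43 and -0.45. HOXC13, a hair and nail gene, had 248 reads in P1048R, 238 in T1202K and 231 in C1233W, against 158 in WT, with log2 ratios of 0.30 (0.00 to 0.59), 0.31 (0.02 to 0.61) and 0.40 (0.10 to 0.70). HOXC12 had 54, 62 and 97 reads against 53 in WT, and stood apart in C1233W at 0.72 (0.23 to 1.24). HOXC10, a lumbar motor neuron gene, was higher in P1048R by 0.26 (0.02 to 0.50), and HOXC11 stood at 0.33, 0.23 and 0.31 with intervals that include 0. On total counts, the intervals of HOXC4 and HOXC13 excluded 0 in all 3 mutants as well. Those of HOXC8 then included 0 in every mutant, and those of HOXC9 in P1048R and T1202K. On that scale 0 HOXC genes were lower and 5 higher in P1048R, 0 and 4 in T1202K, and 1 and 6 in C1233W. The median of all genes also rose there, to 0.19, 0.17 and 0.13. The shares of all genes by the interval were not worked out on total counts, so these HOXC counts have no background beside them.

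In HOXD (chromosome 2, plus strand), HOXD10 (176108790 to 176119942), a hindlimb and lumbar motor neuron gene, stood at 85.5 CPM in P1048R, 84.5 in T1202K and 99.4 in C1233W, against 112 in WT. The log2 ratios were -0.39 (-0.52 to -0.27), -0.41 (-0.54 to -0.28) and -0.17 (-0.30 to -0.05). HOXD13 (176092891 to 176095938) had 851 reads (71.3 CPM), 881 (77.8) and 618 (59.8), against 964 (103) in WT. Its log2 ratios were -0.53 (-0.67 to -0.40), -0.41 (-0.54 to -0.27) and -0.79 (-0.93 to -0.64), and its intervals excluded 0 on total counts too. WT was the highest library for both genes, with C1233W nearest to WT for HOXD10 and farthest from it for HOXD13.

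HOXD11 (176104216 to 176109754), which acts with HOXA11 in kidney and forearm development, had 330 reads (27.6 CPM) in P1048R, 313 (27.6) in T1202K and 241 (23.3) in C1233W, against 293 (31.3) in WT. Only C1233W had an interval off 0, at -0.43 (-0.68 to -0.18). HOXD9 had 185, 171 and 220 reads against 249 in WT, with log2 ratios of -0.78 (-1.06 to -0.50), -0.82 (-1.11 to -0.53) and -0.32 (-0.59 to -0.06). HOXD8 had 187, 172 and 188 reads against 159, HOXD4 had 18, 29 and 12 against 14, and HOXD1 had 9, 10 and 11 against 10, with no interval off 0.

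Between mutants, few HOX genes passed the size rule. In T1202K over P1048R it was 0 of 36, where 1.24% of all compared genes passed. In C1233W over P1048R, 2 were higher and 0 lower, where 3.73% of all genes were higher and 0.806% lower. They were HOXC12 (53954834 to 53958956), with 97 reads in C1233W and 54 in P1048R (1.05, 0.56 to 1.56), and HOXD3, with 15 and 6 reads (1.46, 0.08 to 3.18). In C1233W over T1202K, 1 was lower, where 0.486% of all genes were lower and 3.05% higher. It was HOXD4 (176151222 to 176153226), with 12 reads in C1233W and 29 in T1202K (-1.11, -2.25 to -0.13), 80.5% of whose exonic bases are shared with AC009336.2. On total counts neither C1233W over P1048R call passed.

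Non-coding and read-through genes that lie inside the clusters were mostly under 1 CPM. Of 59, 26 had 0 reads in every library and 22 were compared. None of these passed the size rule against WT in P1048R or T1202K, where 2.21 to 4.48% of all compared genes passed per direction. In C1233W 1 passed, on the lower side, where 1.21% of all genes were lower. It was HOXA-AS3, an antisense gene that runs over HOXA5 and HOXA6 (27129977 to 27155928), with 201 reads in P1048R, 175 in T1202K and 145 in C1233W, against 274 in WT. Its log2 ratios were -0.80 (-1.07 to -0.53), -0.92 (-1.21 to -0.64) and -1.06 (-1.36 to -0.77), the last being -0.93 on total counts. Its exons share bases with those of HOXA3, HOXA4, HOXA6 and HOXA7, and 0 bases with those of HOXA5. The labels do not say whether counting used strand, so reads of HOXA-AS3 and of those 4 genes cannot be told apart where the exons overlap.

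The windows of HOXA6 and HOXA-AS3 are shown because the pair is read from opposite strands, with RefSeq starts 611 bases apart. They are chr7:27147725-27148024 on the minus strand and chr7:27146913-27147212 on the plus strand, with capitals as above. In the gene coordinates used for the counts, given above, both genes start outside these windows, so the counted reads may come from other starts as well.
HOXA6: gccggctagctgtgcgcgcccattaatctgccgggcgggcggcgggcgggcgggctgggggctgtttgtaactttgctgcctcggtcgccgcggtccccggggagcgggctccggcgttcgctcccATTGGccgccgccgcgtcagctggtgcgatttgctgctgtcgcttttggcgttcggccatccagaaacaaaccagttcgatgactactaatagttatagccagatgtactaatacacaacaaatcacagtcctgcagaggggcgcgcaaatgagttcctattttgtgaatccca
HOXA-AS3: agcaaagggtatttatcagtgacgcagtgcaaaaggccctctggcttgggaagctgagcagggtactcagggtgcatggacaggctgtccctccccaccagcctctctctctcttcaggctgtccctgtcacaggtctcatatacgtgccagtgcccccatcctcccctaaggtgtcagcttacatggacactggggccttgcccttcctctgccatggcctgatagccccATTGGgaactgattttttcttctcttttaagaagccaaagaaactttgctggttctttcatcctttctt

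The HOXA6 window was 60.3% GC with 29 CpG and the HOXA-AS3 window 52.7% GC with 2 CpG. Both hold CCAAT, and neither holds TATAAA. Opposite in direction to HOXA-AS3 was HOXC13-AS at the edge of the HOXC cluster (53935328 to 53939643), named after its values were seen. It had 126 reads (10.6 CPM) in P1048R, 108 (9.54) in T1202K and 62 (6.0) in C1233W, against 27 (2.89) in WT. It was higher in all 3 mutants by the size rule, at 1.85 (1.26 to 2.53), 1.70 (1.10 to 2.39) and 1.04 (0.38 to 1.76). The C1233W value was 0.997, just short of the rule, when 2 in place of 0.5 was added to each count. HOXC13 and HOXC13-AS share 172 exonic bases, 7.10% of HOXC13.

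HOTTIP at the edge of HOXA, also chosen after its values were seen, had 29, 17 and 23 reads in P1048R, T1202K and C1233W, against 11 in WT. It passed the rule in P1048R (1.01, 0.00 to 2.2), and fell short at 0.90 when 2 was added. HOTAIR, a non-coding RNA of the HOXC cluster, had 189, 153 and 217 reads against 238 in WT, with log2 ratios of -0.68 (-0.97 to -0.40), -0.91 (-1.22 to -0.61) and -0.28 (-0.55 to -0.01). HAGLR, in HOXD, had 407, 379 and 545 reads against 334 in WT, and was higher in C1233W by 0.56 (0.36 to 0.76).

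**Figure D4:**
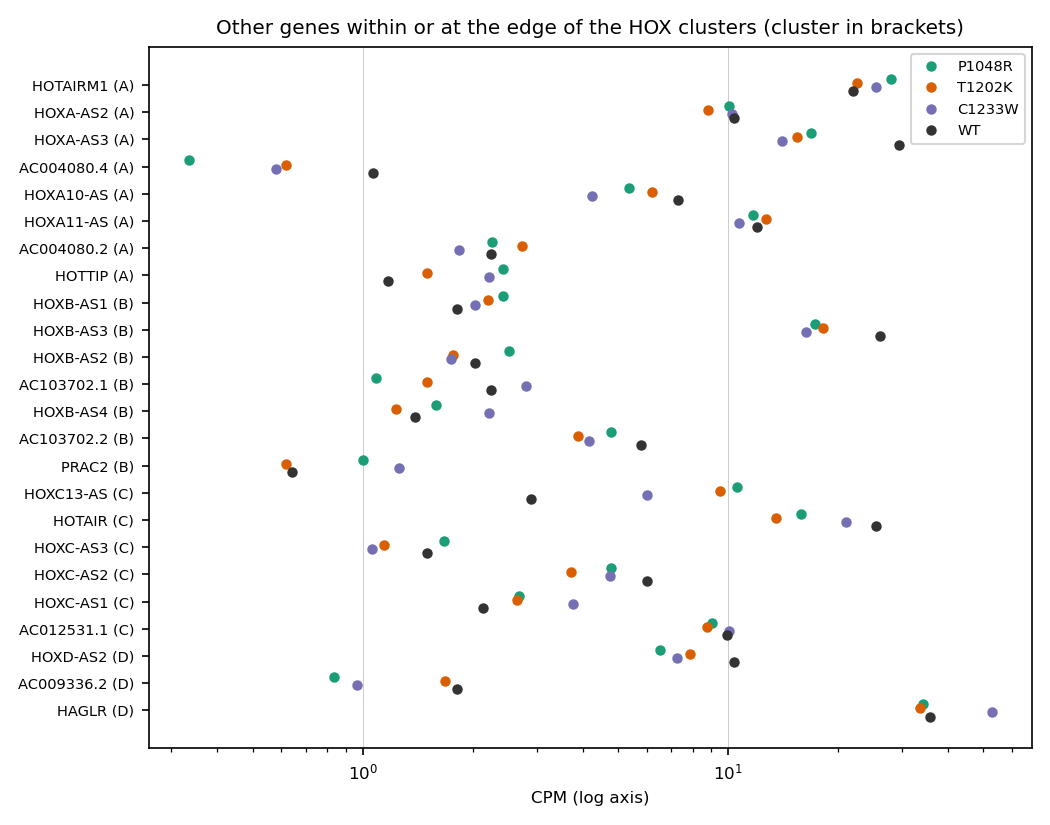
Level in CPM (horizontal axis, log scale) of the other compared genes in or at the edge of the HOX clusters, listed down the page with the cluster in brackets, with 1 point per library of P1048R, T1202K, C1233W and WT. HOXA-AS3 lies left of WT in every mutant (14.03 to 16.8 CPM against 29.3), and HOXC13-AS right of it (6.0 to 10.6 CPM against 2.89).

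Genes that bind with HOX proteins or maintain their expression were read from lists chosen for their function. Among 9 TALE homeodomain cofactors (PBX, MEIS and related genes), PBX4 passed the rule in each mutant and no other member passed. PBX4 had 137 reads (11.5 CPM) in P1048R, 138 (12.2) in T1202K and 91 (8.80) in C1233W, against 26 (2.78) in WT, and was higher by 2.02 (1.43 to 2.71), 2.11 (1.52 to 2.80) and 1.64 (1.02 to 2.35). None of the 16 trithorax and MLL genes, of the 14 PRC1 genes and of the 7 genes for chromosome architecture and HOX regulation passed in any mutant. Of 11 PRC2 genes, PHF1, an accessory subunit, was higher in P1048R at 1.04 (0.76 to 1.32), and the others did not pass. After thinning to equal depth PHF1 stood at 0.98. By the size rule, 3.02% of all compared genes were lower and 4.48% higher in P1048R. The shares were 2.21% and 2.95% in T1202K, and 1.21% and 4.19% in C1233W. At such shares, lists of 7 to 16 genes would hold few passing genes or none. The number of passing genes therefore sets none of these lists apart from all genes.

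Of 17 retinoic acid pathway genes, which include upstream inducers of anterior HOX genes, 13 were compared. In P1048R, ALDH1A2, which makes retinoic acid, was higher by 1.01 (0.49 to 1.59), and STRA6, a retinol transporter, was lower at -1.14 (-2.32 to -0.07). With 2 added to each count ALDH1A2 stood at 0.98, and on total counts STRA6 stood at -0.91, both short of the rule. In C1233W, the receptor gene RARB was higher by 1.48 (0.47 to 2.72) and CRABP2, a retinoic acid carrier, by 1.10 (0.77 to 1.45). In T1202K none passed, where 2.21% of all compared genes were lower and 2.95% higher. The shares of all compared genes were 3.02% lower and 4.48% higher in P1048R, and 1.21% lower and 4.19% higher in C1233W. Of 12 genes flanking the clusters, 10 were compared, and SKAP1 was lower in P1048R, with 4 reads against 11 in WT (-1.71, -3.92 to -0.06). That call was lost on total counts, at -1.48.

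Markers of other cell types were low. Blood markers (1 of 5 compared) summed to 2.68, 3.36 and 3.48 CPM in P1048R, T1202K and C1233W, against 4.60 in WT, with CD3E and HBB at 0 reads throughout. Endothelial markers (1 of 4 compared) summed to 0.75, 1.41 and 4.06 CPM, against 2.78 in WT, with PECAM1 at 0 to 3 reads and KDR lower in P1048R by the size rule (-1.82, -3.25 to -0.66). Fibroblast markers (3 of 5) summed to 22.0, 29.5 and 43.6 CPM, against 42.2 in WT, with COL1A2 at 0 reads throughout and COL3A1 lower in P1048R (-1.02, -1.51 to -0.55). Markers of differentiated kidney tubule and podocytes (1 of 7) summed to 29.5, 31.8 and 54.0 CPM, against 50.2 in WT, nearly all of it LRP2, with UMOD at 0 reads. Over all compared genes, 3.02% were lower in P1048R by the size rule. In the last 2 lists P1048R and T1202K lay below C1233W and WT, and the part of these lists in the HOX values was not tested.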

How the data were processed

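RNA from 4 transfected HEK293T cultures, 1 per construct, was sequenced with a stranded kit, per the labels' protocols. The submitters' processing notes list Trim Galore, HISAT2, featureCounts and build hg38. Tool versions, the annotation, the strand setting and the handling of multiply aligned reads are not stated there or in the labels. The deposited values are whole-number read counts per gene, not normalized. All 58735 identifiers matched GENCODE 29 (GRCh38), which gave coordinates and exonic lengths. Promoter windows came from RefSeq (GRCh38.p14).

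Library sizes were scaled by TMM in edgeR 4.0.16 (R 4.3.3), with factors of 1.07 (P1048R), 1.03 (T1202K), 0.999 (C1233W) and 0.912 (WT). Ratios were taken after adding 0.5 to each count, with 95% intervals by the Clopper-Pearson method on how a pair's reads split; levels have exact Poisson intervals. PCR copies are not independent molecules, so intervals and floors cover counting error only. The 16262 genes that reached 1 CPM in any library were compared. The values of 1 HOX gene and 1 marker gene are not reported here. The ratio code was tested on simulated data.

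The HOX genes, the gene lists and the tests were chosen with earlier results of these data known. Described in full were the 3 members of each cluster with the highest CPM per kilobase and every member that passed the size rule in any of the 6 pairs, and from the lists every gene that passed against WT. Alternatives were total-count scaling, DESeq2 1.42.0 size factors, TMM without PBRM1, no filter, a filter at 5 CPM, 2 added to each count, counts thinned to equal depth, removal of a GC and length trend, and leaving out the most counted gene of a cluster.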

Additional observations from a re-analysis of the deposited data

How the results depend on the processing

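The sign of the HOX median in each mutant, relative to all genes, held under all 8 alternatives, and that of each cluster sum under the 6 run for it. Total counts, DESeq2 size factors and TMM without PBRM1 move a HOX value and the median of all genes together. They could therefore hardly change these signs, nor could adding 2 to the summed reads of a cluster. The 6 did not include the filters or the GC and length trend. With that trend removed, the median over HOXC genes in T1202K was -0.10, below that of all genes at -0.05, where it had been above it. Counts of HOX genes past the size rule rest on few reads. With only genes of at least 5 CPM, 0 HOX genes were lower in P1048R, 1 passed in C1233W over P1048R and 0 in C1233W over T1202K, and the median in C1233W was -0.20; fewer genes were compared. With thinned counts, 1 HOX gene, HOXA4 (-1.02), was lower in T1202K, and 0 passed in C1233W over P1048R. With the GC and length trend removed, 2 were lower in T1202K, HOXA4 (-1.16) and HOXD9 (-1.12), where the median was -0.31. On total counts 0 passed in C1233W over P1048R. Without a low-count filter the medians were -0.13 in P1048R, -0.082 in T1202K and -0.13 in C1233W. The HOXB sum in T1202K was -0.19 without HOXB9, and the HOXD sum in C1233W was -0.52 without HOXD10. Apart from the changes of filter and of genes left out, the cause was not tested. Of single named genes, 1066 values stayed on their side of the rule, 9 fell short of it and 5 newly passed, with 0 reversed.

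No paired analysis was possible because each construct had 1 library. No library was left out, for the same reason, and variation between cultures is unknown. Depth limits HOXB1, HOXC5, HOXD1, HOXD3, HOXD4 and HOXD12, each with 29 or fewer reads in every library.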

Other observations

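The ParaHox and caudal genes, relatives of the HOX genes that lie outside the clusters, were partly on. CDX2, an intestinal regulator that activates HOX genes in the embryo, had 480 reads in P1048R, 520 in T1202K and 332 in C1233W, against 309 in WT, with log2 ratios of 0.28 (0.07 to 0.49), 0.47 (0.27 to 0.68) and -0.04 (-0.27 to 0.19). PDX1, a pancreatic regulator, had 103, 93 and 76 reads, against 42 in WT, at 0.93 (0.41 to 1.49), 0.86 (0.33 to 1.43) and 0.70 (0.15 to 1.29). Neither passed the size rule. CDX1, CDX4, GSX1 and GSX2 had 0 reads in every library.

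The genes of the microRNA hairpins inside the clusters held almost no reads. MIR196A1 had 3, 1 and 3 reads in P1048R, T1202K and C1233W, against 2 in WT, and MIR10B had 2, 0 and 1, against 1 in WT. MIR10A, MIR196B and MIR615 had 0 in every library. Counts of hairpin genes do not measure the mature microRNAs.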
